A study of Mus musculus with 16 samples.

Results

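The nuclei described here came from enteric neurons of the mouse colon, taken after exposure to 3-methylcholanthrene, a polycyclic aromatic hydrocarbon that activates the aryl hydrocarbon receptor (AhR). The comparison comprises the 4 neuronal libraries of agonist-treated mice and the 4 neuronal libraries of mice given corn oil, which is 8 of the 16 libraries in the series. The other 8 libraries hold non-neuronal nuclei under the same treatments and serve as a reference for where a transcript is found. Members were chosen by the library names in the labels, and 14182 of the 51912 genes in the table had enough counts to be tested.

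All groups were C57BL/6 mice housed free of specific pathogens, and every mouse, controls included, carried an AAV9 vector that expresses an EGFP bound to the nuclear envelope from a CaMKII promoter. The vector was injected 5 weeks before isolation. The agonist or the oil was given by intraperitoneal injection 14 hours before isolation, at a dose and in mice of an age that the labels do not give. Nuclei of the muscle layer with its myenteric plexus were gated on DAPI and sorted by EGFP, so the neuronal gate holds those neurons in which the vector and the CaMKII promoter were active. Whether each library came from 1 mouse or from a pool is not in the labels, so the p-values measure only the spread between these samples. The headers of the table also carry a project name that mentions an AhR knockout beside wild-type animals. The labels describe treatment only, and the groups here follow them.

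AhR is a transcription factor that waits in the cytoplasm in a complex with the HSP90 chaperone and the co-chaperone p23. After binding a ligand it enters the nucleus, pairs with ARNT and binds DNA at sites with the core GCGTG. Its classic targets encode cytochrome P450 enzymes that oxidise the ligand (Cyp1a1, Cyp1a2, Cyp1b1) and proteins that end the signal, among them the repressor AHRR and the ADP-ribosyltransferase TIPARP. In the gut, AhR is known as a sensor of dietary, microbial and environmental compounds in epithelial and immune cells, and enteric neurons of the colon also express it.

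Agonist library 1 stood apart from the other 7. Total counts were 2887416 to 4434251 in the agonist and 2982245 to 3521090 in the control libraries. In agonist library 1, 243 genes were above 10 times the median of the other libraries and 1146 genes were below a 10th of it, against 6 to 27 and 16 to 114 genes in the other libraries. Its TMM factor (a correction of library size for composition) was 0.764, against at least 0.998 in the others. Genes with a count numbered 17293 to 21247 in the agonist and 21063 to 26379 in the control libraries, and 16613 to 21247 against 20810 to 26154 after thinning each library to 2887416 counts. Log2 CPM of agonist replicates correlated across genes at 0.618 to 0.803, and that of control replicates at 0.872 to 0.911, with genes that are not independent replicates. The results below are therefore given with and without agonist library 1. Levels are TMM-scaled CPM, the share of a library's counts scaled for composition.

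Across the transcriptome few genes passed any test, and how many depended on the tool. By edgeR's quasi-likelihood test 0 of 14182 genes (0%) passed a Benjamini-Hochberg adjusted p of 0.05, and without agonist library 1 it called 0 of 14933 (522 higher, 3.5%, and 389 lower, 2.6%, at an unadjusted p under 0.05, 6.1% in all). At an unadjusted p under 0.05 there were 711 genes (5.01%), with 523 higher (3.69%) and 188 lower (1.33%) in the agonist libraries. Of the 523, 431 (82.4%) had their highest value in agonist library 1, which held the highest value of 28.5% of all genes tested. DESeq2 called 14 genes higher (0.0743%) and 10 lower (0.0531%) of 18837 (0.127% in all), and 9 higher (0.041%) and 15 lower (0.0683%) without library 1 (0.109% in all). Limma voom called 0, with 587 genes (4.14%) at an unadjusted p under 0.05, and limma voom with a quality weight per library called 4 higher and 0 lower (0.0282%). With no filter on low counts edgeR called 142 higher (0.413%) and 10 lower (0.0291%) of 34376 genes (0.442% in all). All 4 agonist libraries lay above all 4 control libraries for 206 genes (1.45%) and below them for 308 (2.17%), or 3.62% in either direction, and without library 1 these numbers were 503 (3.55%) and 538 (3.79%). In bulk nuclei, fewer cells of a type and less RNA per cell cannot be told apart.

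**Figure D1:**
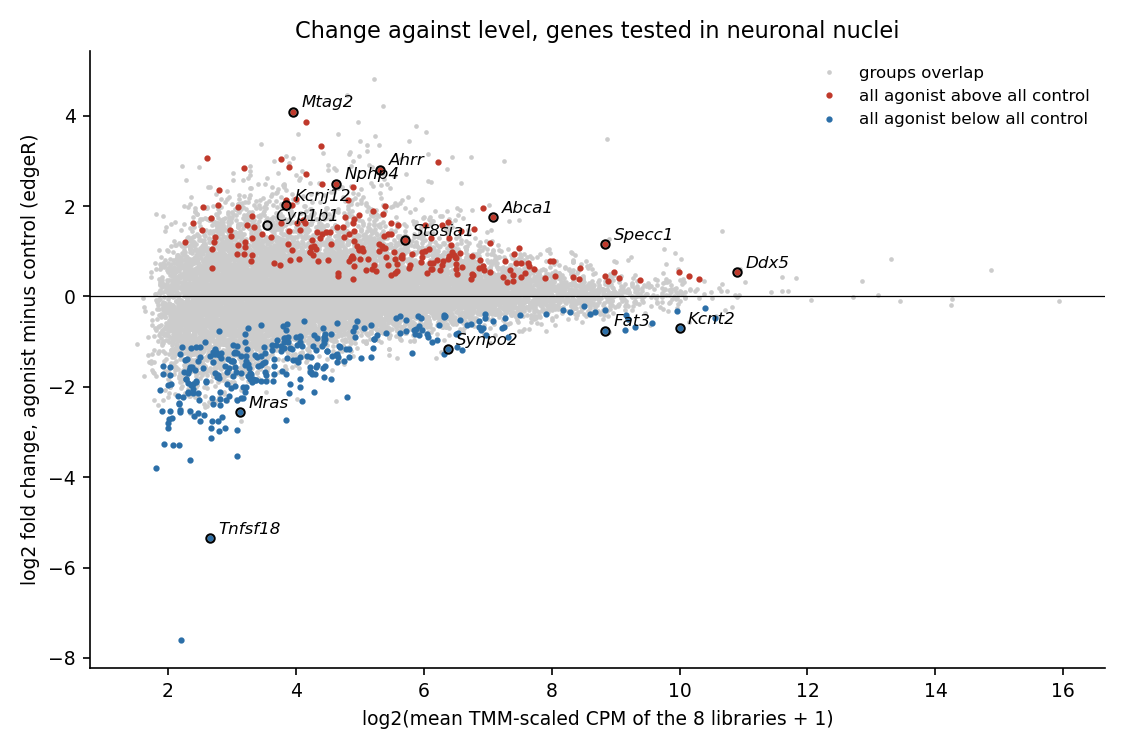
Log2 fold change (agonist minus control, edgeR) against the log2 of the mean level (TMM-scaled CPM plus 1) for the 14182 genes tested, with the 206 genes whose agonist libraries all lay above the controls in red, the 308 below in blue and the rest in grey. Ahrr, Abca1 and Specc1 are red points at 2.81, 1.75 and 1.15, and 133 of the 308 blue genes are in the lowest quartile of level.

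The genes without overlap were not spread evenly over levels. In the lowest quartile of genes by mean level (1.85 to 8.79 CPM) 22 genes (0.620%) lay above and 133 (3.75%) below the controls. In the highest quartile (above 52.2 CPM) 81 genes (2.28%) lay above and 56 (1.58%) below. A gene near 0 in every library of 1 group passes the count filter only where all 4 libraries of the other group have enough counts. At the lowest level, groups apart in either direction are thus partly set by the filter. The agonist libraries also tended to hold fewer genes with a count, with overlap between the groups and the fewest in agonist library 1. The part of this in the low-level group was not tested. Scaling by library size only moved the centre of all genes by more than 0.1, from a median log2 fold change of 0.08 with TMM to -0.03, and the median was -0.11 in the limma voom fit.

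Of the classic AhR genes, Ahrr had the clearest difference in the neuronal nuclei. Ahrr (ENSMUSG00000021575) encodes the AhR repressor, which competes with AhR for ARNT. It stood at 64.9, 66.1, 66.1 and 75.0 CPM in agonist libraries 1 to 4 and at 9.0, 9.05, 2.89 and 17.9 CPM in control libraries 1 to 4. All agonist libraries lay above all controls, and agonist library 1 was no exception. The ratio of the means was 7.02 (68.0 ± 4.70 against 9.70 ± 6.16 CPM, SD over 4 libraries each). The log2 fold change was 2.81 (SE 0.51) with an edgeR adjusted p of 0.574, and 2.83 (SE 0.47) with an edgeR adjusted p of 0.0671 without library 1. Ahrr passed in DESeq2 (adjusted p = 0.000224) and in limma voom with quality weights (adjusted p = 0.00641).

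Cyp1a1 (ENSMUSG00000032315), the P450 enzyme most used as a readout of AhR activity, had counts in every agonist library and in no control library. The counts were 10, 28, 25 and 29 in agonist libraries 1 to 4, or 3.00, 7.29, 7.69 and 9.55 CPM. With 3 counts over the 4 control libraries as the floor, the agonist mean of 6.88 CPM was at least 30.3-fold higher. The filter on low counts kept Cyp1a1 out of the edgeR test of 8 libraries, and DESeq2 called it (adjusted p = 0.00156). Without library 1 it entered the edgeR test and had an edgeR adjusted p of 0.230. In the non-neuronal nuclei of agonist mice Cyp1a1 stood at 11.7, 8.57, 163 and 165 CPM, on the scale fitted over 16 libraries. The highest neuronal agonist library, at 8.05 CPM on that scale, lay just below the lowest of these. By library size only, the neuronal mean was 8.75% of the non-neuronal mean, which non-neuronal agonist libraries 3 and 4 largely set. The same share was 8.90% for the smooth muscle gene Synpo2, and for summed marker lists it was 16.8% for smooth muscle, 25.6% for enteric glia, 10.4% for fibroblasts, 3.07% for endothelium and 1.86% for epithelium. Carry-over of RNA from other cells and its part in the Cyp1a1 counts were not tested. For Ahrr the same share was 1329%, so its level was higher in the neuronal nuclei.

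Tiparp (ENSMUSG00000034640), whose product inactivates AhR by ADP-ribosylation, was high in 3 of the 4 agonist libraries. It stood at 43.6, 92.7, 126 and 137 CPM with agonist and at 46.9, 50.1, 33.2 and 42.6 CPM with oil. Agonist library 1 lay among the controls and the other 3 above them. The log2 fold change was 1.21 (SE 0.38, edgeR adjusted p = 0.903) and 1.45 (SE 0.27, edgeR adjusted p = 0.183) without library 1, where DESeq2 called it (adjusted p = 0.00168, against 0.297 with all libraries).

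Cyp1b1 (ENSMUSG00000024087), a P450 enzyme of hydrocarbon and steroid metabolism, behaved alike by library. It stood at 1.50, 17.7, 17.8 and 27.6 CPM with agonist and 8.69, 3.92, 7.51 and 1.25 CPM with oil, again with library 1 at the level of the controls. The log2 fold change was 1.59 (SE 0.86, edgeR adjusted p = 0.903), or 1.96 (SE 0.64, edgeR adjusted p = 0.759) without library 1.

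Among the other classic targets, Nqo1, Aldh3a1 and Cyp1a2 were at or near 0. Nqo1, a quinone reductase, had 18 counts over the agonist and 12 over the control libraries, the aldehyde dehydrogenase gene Aldh3a1 had 4 and 1, and Cyp1a2 had 0 and 0. Il22, an interleukin gene that AhR is known to drive in lymphocytes, had 74 counts with agonist, at 24.4 CPM in agonist library 4 and 0 CPM in the other 3, and 1 count in the controls. It was chosen after its values were seen. Of 18 AhR target genes listed, 4 passed the count filter and 0 were called by edgeR (0% of all genes tested). Of these 4, 2 lay above the controls in every agonist library (1.45% of all genes tested). These 4 (Ahrr, Tiparp, Cyp1b1 and Nfe2l2) had a median log2 fold change of 1.58, against 0.08 over all genes tested, and 1.71 without library 1. Both medians leave out the members below the filter of 8 libraries, which went in both directions. Cyp1a1 had 92 counts with agonist and 0 with oil, and Slc7a5 had 19 and 66. Without library 1 both were tested, at log2 fold changes of 7.77 and -1.36. Slc7a5 was chosen after its values were seen.

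**Figure D2:**
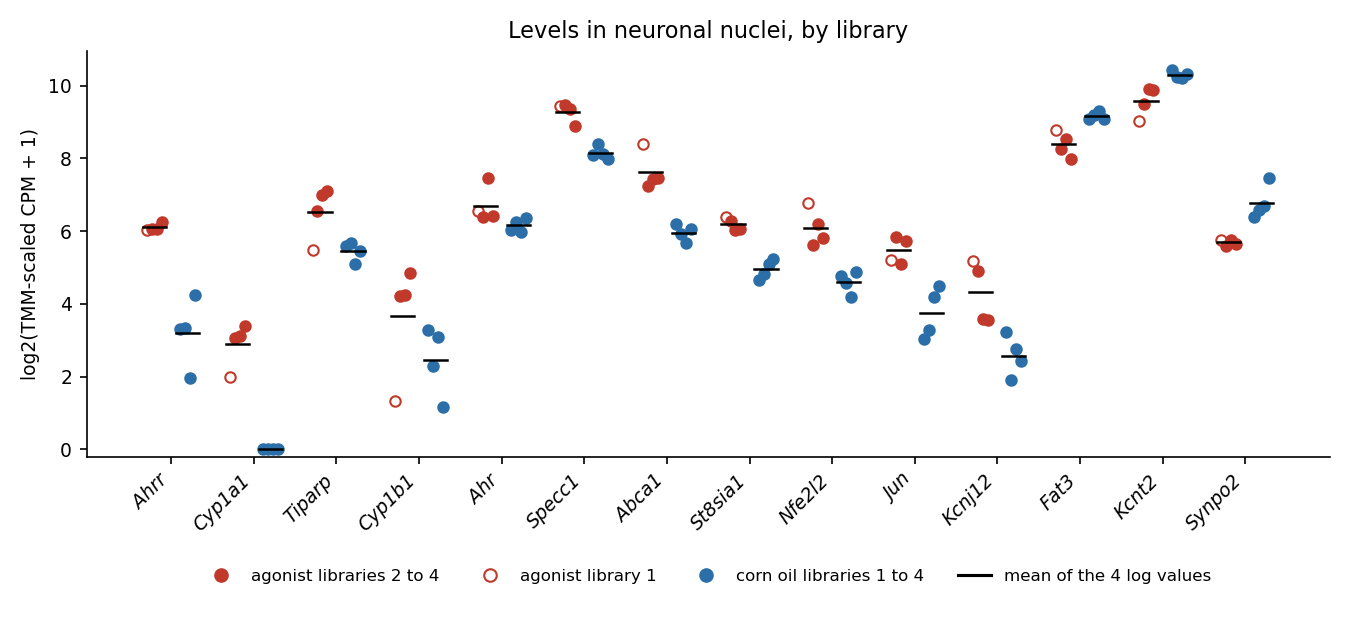
Levels, as log2 of TMM-scaled CPM plus 1, of 14 genes in each neuronal library, with agonist libraries in red (library 1 open), corn oil libraries in blue and bars at the mean of the log values. Agonist library 1 sits with the controls for Tiparp and Cyp1b1 and with the other agonist libraries for Ahrr, Specc1 and Synpo2.

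The receptor itself and its partners were present under both treatments. Ahr (ENSMUSG00000019256) stood at 92.5, 82.8, 173 and 83.6 CPM with agonist and at 64.9, 75.7, 62.4 and 81.1 CPM with oil. The groups did not overlap, though the lowest agonist library lay just above the highest control, and agonist library 3 was far above the rest. The log2 fold change was 0.61 (SE 0.32, edgeR adjusted p = 0.903). Arnt, the DNA-binding partner, stood at 142 ± 17.4 CPM with agonist and 149 ± 21.5 CPM with oil (SD over 4 libraries). Its log2 fold change was -0.07 (SE 0.23), with the groups intermixed. Arnt2, the partner known from brain neurons, stood at 4.81 to 10.5 CPM with agonist and 4.66 to 18.5 CPM with oil, also with overlap. Of 15 receptor and partner genes tested, 0 were called and 1 (Ahr) lay above all controls (0% and 1.45% of all genes tested). Their median log2 fold change was 0.04. The coregulator genes Sp1 and Ncoa3, named after their values were seen, had log2 fold changes of 0.91 and 0.62 with library 1 and of -0.42 and -0.37 without it.

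The promoters of the AhR genes are shown because they carry the core that the AhR and ARNT pair binds. Windows are the 250 bases before each gene's RefSeq start on GRCm38.p6, written in the direction of the gene, in lower case with each GCGTG, or CACGC for the core on the other strand, in capitals. Ahrr lies at chr13:74292332-74292581 (minus strand), Cyp1a1 at chr9:57697363-57697612 (plus), Tiparp at chr3:65528197-65528446 (plus) and Cyp1b1 at chr17:79715062-79715311 (minus). Specc1, a gene described next, has RefSeq starts at 2 places, and its second window lies at chr11:62076774-62077023 (plus).
Ahrr: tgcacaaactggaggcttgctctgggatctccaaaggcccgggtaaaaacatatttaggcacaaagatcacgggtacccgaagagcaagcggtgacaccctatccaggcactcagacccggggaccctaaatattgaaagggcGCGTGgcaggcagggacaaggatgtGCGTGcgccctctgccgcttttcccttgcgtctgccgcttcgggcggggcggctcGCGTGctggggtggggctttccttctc
Cyp1a1: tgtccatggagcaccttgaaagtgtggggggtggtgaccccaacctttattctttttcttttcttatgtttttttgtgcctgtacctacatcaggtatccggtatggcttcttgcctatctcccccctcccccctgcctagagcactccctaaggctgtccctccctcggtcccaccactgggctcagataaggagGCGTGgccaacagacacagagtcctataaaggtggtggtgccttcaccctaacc
Tiparp: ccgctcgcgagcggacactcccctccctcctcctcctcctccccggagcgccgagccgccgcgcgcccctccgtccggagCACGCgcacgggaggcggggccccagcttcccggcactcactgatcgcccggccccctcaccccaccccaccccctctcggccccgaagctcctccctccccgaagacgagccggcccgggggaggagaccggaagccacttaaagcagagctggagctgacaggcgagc
Cyp1b1: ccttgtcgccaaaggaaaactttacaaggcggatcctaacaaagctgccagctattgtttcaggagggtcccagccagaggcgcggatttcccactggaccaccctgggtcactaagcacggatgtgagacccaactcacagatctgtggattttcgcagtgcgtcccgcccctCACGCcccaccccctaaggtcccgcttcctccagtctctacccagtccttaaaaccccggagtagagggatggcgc
Specc1: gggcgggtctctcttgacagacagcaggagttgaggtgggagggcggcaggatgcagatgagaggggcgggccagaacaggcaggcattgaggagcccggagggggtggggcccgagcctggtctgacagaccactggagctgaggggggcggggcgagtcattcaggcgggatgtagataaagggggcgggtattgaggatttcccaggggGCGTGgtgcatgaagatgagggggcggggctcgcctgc
The Ahrr window holds 3 cores, at -107, -82 and -27 from the start, and each of the other windows holds 1. The core begins at -54 in Cyp1a1, -170 in Tiparp, -76 in Cyp1b1 and -38 in the second Specc1 window, while the first Specc1 window holds none. Over the whole 300-base windows of RefSeq (250 before to 50 after the start), both strands searched, 32.4% of 32851 windows hold GCGTG and 5.07% hold the longer TNGCGTG, which contains the core. Of the looked-up genes only Ahrr and Nphp4 had the longer form. The windows of Abca1, Nfe2l2, Kcnj12 and Jun hold no core, which says only that these letters are not in this window. Of 15 genes looked up, 12 had a window. Over the 300-base windows, 8 of these held the core in a window, St8sia1, Nphp4 and Ddx5 among them. Specc1, Nphp4 and Ddx5 have several windows, which gives more places for the core to occur.

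Beyond the classic targets, Specc1 and Abca1 had the smallest edgeR p-values among named genes. Specc1 (ENSMUSG00000042331) encodes a coiled-coil protein with a calponin homology domain. It stood at 688, 699.7, 659.9 and 475 CPM with agonist and at 274, 333, 279 and 250.2 CPM with oil, so that every agonist library lay above every control. On the log2 scale the fold change was 1.15 (SE 0.19, edgeR adjusted p = 0.527), and 1.11 (SE 0.18, edgeR adjusted p = 0.0671) without library 1. DESeq2 (adjusted p = 0.0189) and limma voom with quality weights (adjusted p = 0.00273) called it.

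Abca1 (ENSMUSG00000015243), a transporter that exports cholesterol to apolipoproteins, stood at 335, 152, 172 and 174 CPM with agonist and at 72.0, 59.1, 50.3 and 65.5 CPM with oil. The groups were apart, and library 1 was far above the other agonist libraries. On the log2 scale the fold change was 1.75 (SE 0.31, edgeR adjusted p = 0.527) and 1.43 (SE 0.23, edgeR adjusted p = 0.0671) without library 1, and DESeq2 called it with and without that library (adjusted p = 0.00519 and 4.74e-05). Of 10 genes of the LXR receptor and of cholesterol efflux that were tested, Abca1 alone lay above the controls. Over all genes tested 1.45% did, so a list this short cannot show whether the rest of the pathway changed. The median log2 fold change of these 10 genes was -0.20, or -0.07 without library 1. The desaturase gene Scd2 stood at 136 against 163 CPM. Of 22 genes of cholesterol synthesis 0 had an unadjusted p under 0.05 or groups apart (5.01% and 3.62% of all genes tested), with a median of -0.10.

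Nfe2l2 (ENSMUSG00000015839) encodes NRF2, the regulator of the oxidative stress response and a known target of AhR. It stood at 108, 47.9, 72.3 and 55.0 CPM with agonist and at 26.1, 22.9, 17.3 and 28.5 CPM with oil, with every agonist library above every control. On the log2 scale the fold change was 1.58 (SE 0.39, edgeR adjusted p = 0.903), or 1.3 (SE 0.34) without library 1, and DESeq2 called it with all libraries (adjusted p = 0.0495) and not without library 1 (adjusted p = 0.0785). Genes that NRF2 drives had fold changes on both sides of 0. Of 12 tested genes on that list, which holds Nfe2l2 itself, 6 had fold changes below 0 and the median log2 fold change was 0.05, and without library 1 there were 3 below 0 and the median was 0.24. The glutathione synthesis gene Gclc stood at 32.1 against 42.9 CPM and the malic enzyme gene Me1 at 46.8 against 53.8 CPM.

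Other named genes with all agonist libraries above the controls were St8sia1, Asph, Ddx5, BC005537, Nphp4, Mtag2, Rgs22 and Nfatc1. St8sia1, the sialyltransferase that makes the ganglioside GD3, stood at 82.0, 76.3, 64.0 and 65.8 CPM with agonist and 24.2, 27.2, 33.2 and 36.3 CPM with oil. Its spread within each group was small, the log2 fold change was 1.25 (SE 0.33, edgeR adjusted p = 0.903), and DESeq2 called it with all libraries (adjusted p = 0.0437) and not without library 1 (adjusted p = 0.0710). Ddx5, an RNA helicase of transcription and splicing, stood at 2439, 2212, 2271 and 2125 CPM with agonist and 1490.1, 1615, 1713 and 1398 CPM with oil. The difference is small in size (log2 fold change 0.54, SE 0.13) and was called in 1 of 18 alternative fits, limma voom with quality weights (adjusted p = 0.0265), and not by DESeq2 (adjusted p = 0.458). Asph, an aspartate beta-hydroxylase of the endoplasmic reticulum, had a log2 fold change of 1.18 (SE 0.29) and the uncharacterised BC005537 one of 0.79 (SE 0.21).

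The remaining 4 rested more on agonist library 1. Nfatc1, a calcium-regulated transcription factor, stood at 479.8, 109, 79.9 and 100.1 CPM with agonist, and its log2 fold change of 1.96 (SE 0.52) became 0.96 (SE 0.27) without that library. Rgs22, of the family that shortens G protein signals, went from 1.65 (SE 0.43) to 1.11 (SE 0.31). Nphp4, a gene of the primary cilium, went from 2.50 (SE 0.57, DESeq2 adjusted p = 0.0129) to 1.95 (SE 0.51, DESeq2 adjusted p = 0.0717). The antisense RNA Mtag2 went from 4.09 (SE 0.98, DESeq2 adjusted p = 0.00955) to 2.96 (SE 0.88, DESeq2 adjusted p = 0.176), and without a stated strand setting its reads cannot be told apart from those of a gene on the other strand.

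Jun, a subunit of the AP-1 factor, was outside the naming rule and was chosen after its values were seen. It stood at 36.1, 56.5, 33.5 and 52.3 CPM with agonist and 7.14, 8.75, 17.3 and 21.3 CPM with oil, without overlap (log2 fold change 1.71, SE 0.49). DESeq2 called it without library 1 (adjusted p = 0.0498) and not with all libraries (adjusted p = 0.112), and it passed in 1 of 18 alternative fits. Of 13 tested immediate early genes Jun alone lay above the controls and Nr4a3 alone below (1.45% and 2.17% of all genes tested). Their median log2 fold change was 0.13, or -0.03 without library 1. Egr1, a zinc-finger factor of that list, stood at 299.7 CPM in agonist library 2 and at 64.9 to 87.2 CPM in the other 3, against 52.9 to 99.0 CPM in the controls.

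**Figure D3:**
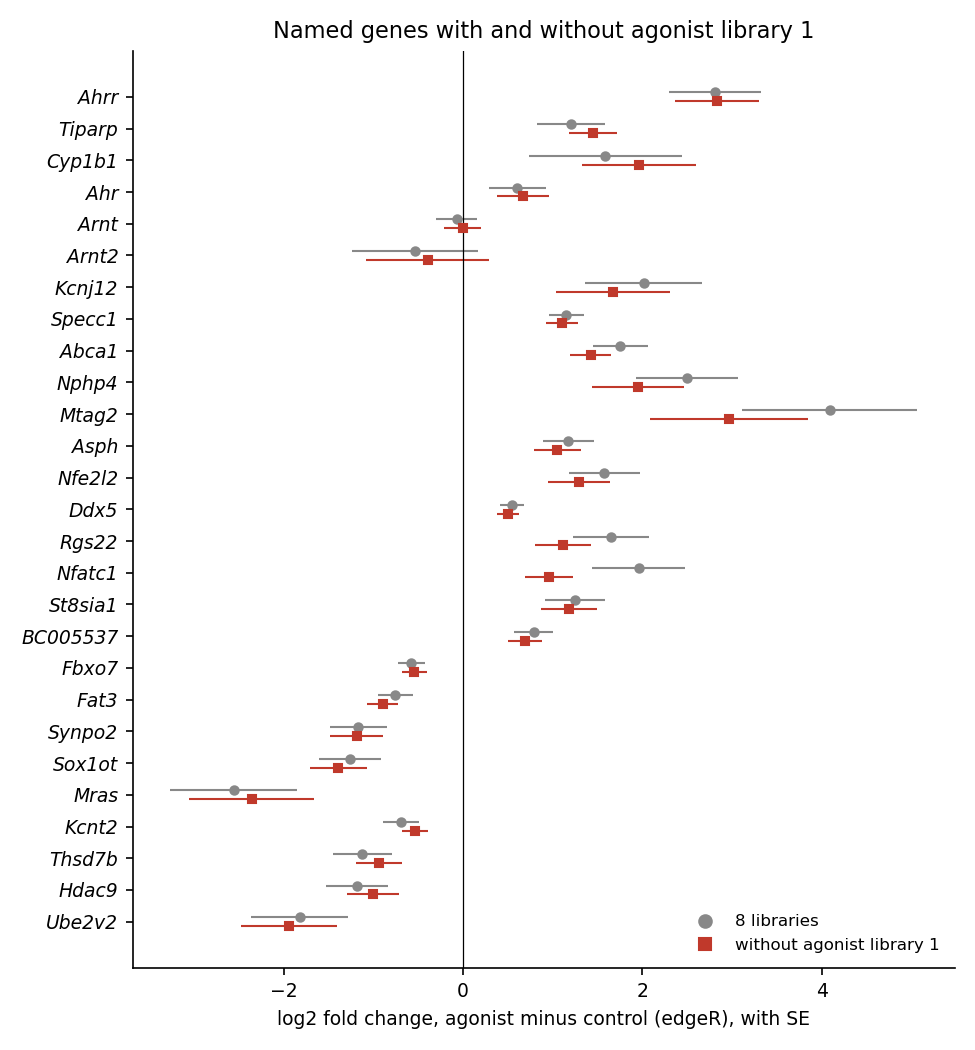
Log2 fold change (agonist minus control, edgeR) with its SE for 27 named genes, with all 8 libraries in grey and without agonist library 1 in red. Nfatc1 moves from 1.96 to 0.96, Tiparp from 1.21 to 1.45, and Ahrr from 2.81 to 2.83.

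Among genes that stood lower with agonist were an adhesion gene, a ubiquitin ligase subunit and a noncoding RNA. Fat3, an atypical cadherin, stood at 435, 304, 368 and 251 CPM with agonist and 545, 579.6, 625 and 539.9 CPM with oil. The groups were apart, the log2 fold change was -0.75 (SE 0.20, edgeR adjusted p = 0.903), and without library 1 it was -0.90 (SE 0.17), where DESeq2 called it (adjusted p = 0.0334, against 0.453 with all libraries). Fbxo7, a subunit of a ubiquitin ligase, stood at 559, 600.0, 651 and 624 CPM against 903, 828, 949 and 957 CPM. Its groups were narrow and apart, at a log2 fold change of -0.58 (SE 0.15). Sox1ot, the transcript that overlaps Sox1, stood at 32.4 ± 7.96 against 77.7 ± 17.3 CPM (SD over 4 libraries). Its log2 fold change was -1.26 (SE 0.35), and DESeq2 called it without library 1 (adjusted p = 0.0256) and not with it (adjusted p = 0.141).

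The lower genes with the largest fold changes had few counts. Tnfsf18, a ligand of the TNF family, had 3 counts over the agonist and 135 over the control libraries, at 13.7, 5.13, 3.76 and 19.1 CPM in the controls, and DESeq2 called it with library 1 (adjusted p = 0.00825) and without it (adjusted p = 0.0216). Mras, a small GTPase of the Ras family, had 30 and 176 counts (log2 fold change -2.56, SE 0.71), with a DESeq2 adjusted p of 0.0341 that was 0.137 without agonist library 1. Itpkc, an inositol trisphosphate kinase, had 14 and 128 counts (-3.14, SE 0.83), with a DESeq2 adjusted p of 0.0401 that was 0.120 without that library. Olfml2a and Csnk2b had 15 against 182 and 17 against 140 counts, and in both control library 2 held most of the control counts. The ubiquitin-conjugating gene Ube2v2 had 92 against 321 counts (-1.82, SE 0.54).

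DESeq2's 24 calls with all libraries included genes with too few counts for the edgeR filter. Of its 14 higher genes 5 (Ahrr, Cyp1a1, Specc1, Abca1 and the model Gm3667) were also called without agonist library 1, as were 6 of its 10 lower genes. Slc5a5, the sodium and iodide symporter, had 0 counts with agonist and 125 with oil, at least 42.1-fold lower against a floor of 3 counts over the group. Control library 2 held 88 of the 125, and without it the bound was 16.4-fold. Cyp19a1, the aromatase that makes oestrogen, had 117 counts with agonist and 0 with oil, at least 40.3-fold higher. It had no count in agonist library 2, so its groups overlap, and it was not called without library 1 (DESeq2 adjusted p = 0.596). Rasgrp3, an exchange factor for Ras proteins, had 0 and 64 counts, and was not called without library 1 (DESeq2 adjusted p = 0.0753). Pdgfrl, a receptor-like protein, had 114 and 4 counts, 82 of the 114 in agonist library 1. Its ratio of means was 28.0 with that library and 10.3 without it, where it was not called (DESeq2 adjusted p = 0.510). Slc5a5, Cyp19a1, Rasgrp3 and Pdgfrl were chosen after their values were seen.

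Hdac9 and Thsd7b were also below every control. Hdac9, a class IIa histone deacetylase, stood at 35.8, 42.4, 89.8 and 66.5 CPM with agonist and 156, 148, 92.2 and 135 CPM with oil, with agonist library 3 just under control library 3. Its log2 fold change was -1.18 (SE 0.35), and in the non-neuronal nuclei every agonist library (24.2 to 77.7 CPM) lay above every control library (11.7 to 23.8 CPM). The difference between the populations was -2.37 (SE 0.70) with an edgeR adjusted p of 0.413 and a DESeq2 adjusted p of 0.0376. Thsd7b, a thrombospondin-domain protein, had a log2 fold change of -1.12 (SE 0.33).

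Potassium channels were looked at because Kcnj12, an inward rectifier channel, is the channel gene for which AhR signalling in colonic neurons is known. Kcnj12 (ENSMUSG00000042529) stood at 35.5, 28.9, 11.1 and 10.9 CPM with agonist and at 8.38, 2.72, 5.78 and 4.38 CPM with oil. All agonist libraries lay above all controls, with libraries 3 and 4 close to the highest control. On the log2 scale the fold change was 2.01 (SE 0.65) at an unadjusted p of 0.00885 and an edgeR adjusted p of 0.903, and 1.67 (SE 0.64) without library 1, and neither DESeq2 (adjusted p = 0.178) nor another fit called it. In the non-neuronal nuclei it had at most 0.694 CPM in a library.

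Of 34 potassium channel genes tested, 0 were called by edgeR (0% of all genes tested). At an unadjusted p under 0.05, 4 were higher and 3 lower (3.69% and 1.33% of all genes tested), and 2 lay above and 2 below the controls without overlap (1.45% and 2.17% of all genes). Their median log2 fold change was 0.11, or -0.01 without library 1. Kcnt2, a sodium-activated channel, stood at 519, 716, 958 and 937 CPM with agonist and 1384, 1196, 1190.1 and 1283 CPM with oil. Every agonist value was below every control (log2 fold change -0.69, SE 0.20, and -0.54, SE 0.15, without library 1). Kcnq3, of the M-current channels, stood at 584 against 901 CPM with overlap, and the large-conductance channel gene Kcnma1 at 473.5 against 429 CPM. After their values were seen, Kcnc2, a channel of fast-firing neurons, was chosen as the other gene above the controls (log2 fold change 0.61, SE 0.22). Kcna4, of the transient current, was the other gene below them (-1.11, SE 0.48). Kcnj5, another inward rectifier, rested on library 1: it stood at 453 CPM there and at 22.4 to 53.8 CPM in the other agonist libraries, and its log2 fold change went from 1.80 to -0.04 without it.

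Pan-neuronal genes were abundant under both treatments, and edgeR called none of them, as it called 0% of all genes tested. The 30 pan-neuronal genes summed to 11109 to 12277 CPM with agonist and 11370.1 to 13327 CPM with oil, by library size, and to 266 to 1156 CPM in the non-neuronal nuclei of agonist mice. The label of the population is therefore borne out by its markers. The synaptic fusion gene Snap25 stood at 1945, 1036, 934 and 899 CPM against 801, 861, 890.5 and 1151 CPM. The scaffold gene Ank2 stood at 4151 against 4400 CPM and the microtubule gene Map2 at 1771 against 1636 CPM as means of 4. On the log2 scale the fold changes of Snap25, Ank2 and Map2 were 0.38 (SE 0.25), -0.08 (SE 0.16) and 0.11 (SE 0.16).

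Transmitter genes had fold changes in both directions. Of 24 enteric transmitter and peptide genes tested 2 were higher and 1 lower at an unadjusted p under 0.05 (3.69% and 1.33% of all genes tested), 0 lay above and 2 below the controls without overlap (1.45% and 2.17% of all genes), and the median log2 fold change was -0.09. Nos1, the nitric oxide synthase of inhibitory motor neurons, stood at 2021, 1005, 668 and 406 CPM with agonist and 713, 897, 988 and 629 CPM with oil, wider within the agonist group than between the groups. Vip, the peptide often made in the same neurons, stood at 74.2, 146, 127 and 199 CPM against 147, 220.3, 187 and 377 CPM (log2 fold change -0.77, SE 0.35, edgeR adjusted p = 0.903). Chat, the enzyme that makes acetylcholine in excitatory neurons, stood at 224, 107, 184 and 135 CPM against 94.4, 79.7, 131 and 97.1 CPM (0.69, SE 0.29, edgeR adjusted p = 0.903). For both Vip and Chat the groups overlap. Gal, the neuropeptide galanin, was below the controls in every agonist library, at 11.7 to 18.8 against 19.0 to 39.1 CPM. Chat and Gal were chosen after their values were seen.

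Among receptor, release, adhesion and ion channel genes, 0 to 2 per list lay above and 1 to 3 below the controls. Over all genes tested these shares were 1.45% and 2.17%, and in each of these lists the share below was larger, on few genes. Of 49 neurotransmitter receptor genes 2 lay above and 3 below the controls without overlap (median log2 fold change 0.10), of 40 synaptic vesicle and release genes 0 and 2 (0.10), of 56 adhesion and synapse organiser genes 2 and 3 (-0.09), and of 25 sodium and calcium channel genes 0 and 1 (0.27). The AMPA receptor gene Gria2 stood between 1000.3 and 1154 CPM in all 8 libraries, with a log2 fold change of -0.02 (SE 0.14). Named after their values were seen, the release genes Cadps2 (-0.67, SE 0.25) and Syt4 (-0.90, SE 0.40) were below every control, as was the GABA receptor subunit gene Gabrb1 with 20 against 149 counts. Of 36 RNA-binding and splicing genes 3 lay above and 0 below (1.45% and 2.17% of all genes), namely Ddx5, Msi2 and Khdrbs3. Of 37 transcription factors of enteric neurons 1 lay above, the zinc-finger gene Myt1 (0.79, SE 0.24), and 1 below, Etv1 (-0.29, SE 0.17). Without library 1 the medians of the receptor, vesicle, adhesion and channel lists were -0.02, -0.14, -0.12 and 0.01.

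**Figure D4:**
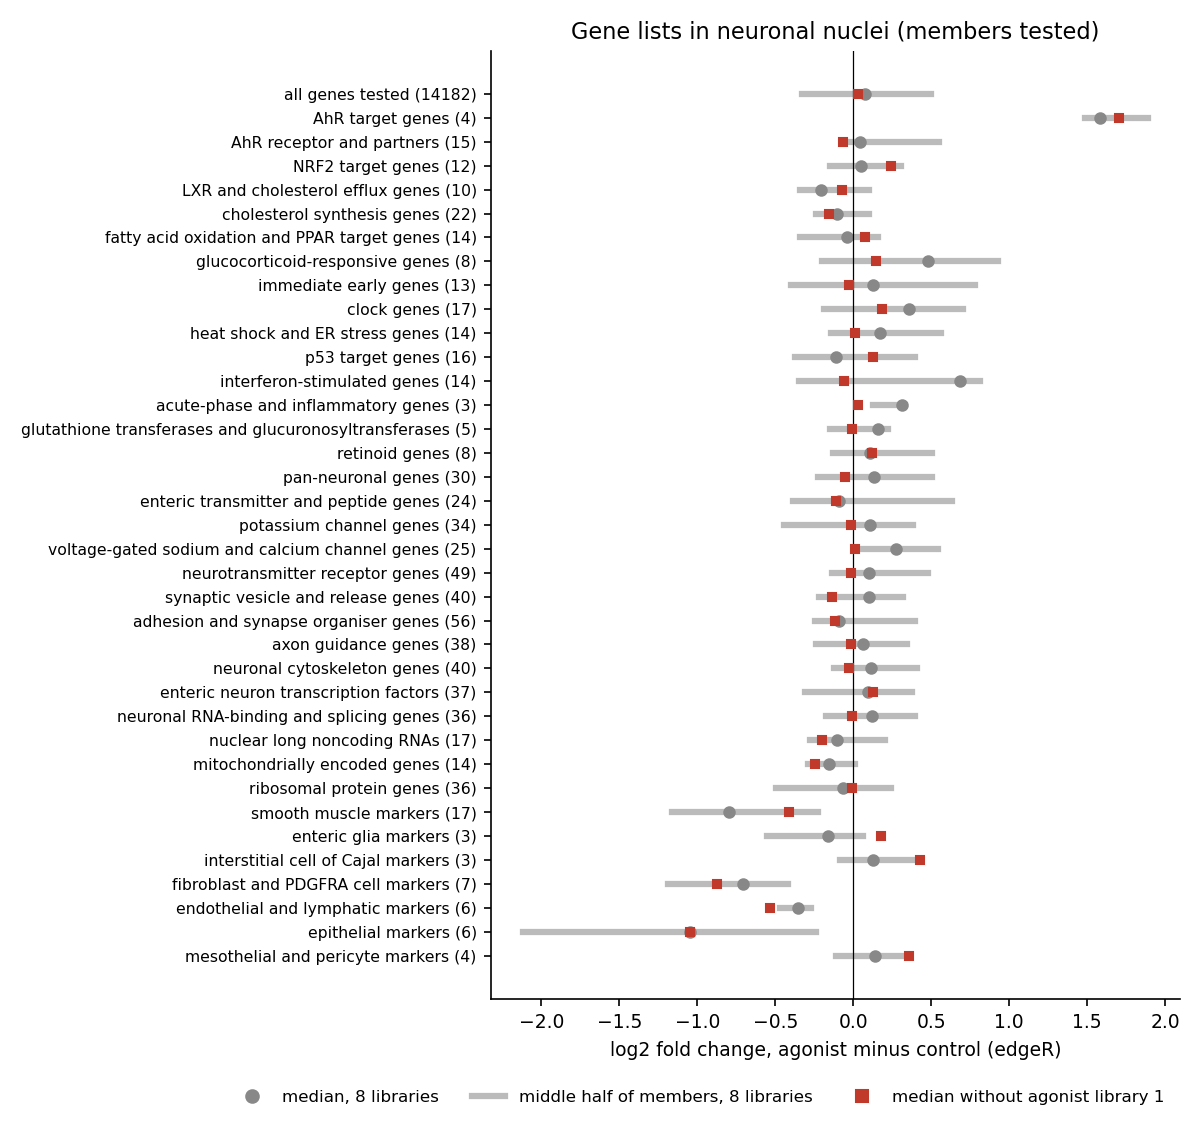
Median log2 fold change (agonist minus control, edgeR) of the tested members of each gene list, with 8 libraries in grey, without agonist library 1 in red, and a bar from the lower to the upper quartile of the members. The AhR target genes (4 tested) stand at 1.58, the neuronal lists near 0, and the smooth muscle, fibroblast and epithelial markers below 0.

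Stress and immune lists held no gene called by edgeR, which called 0 of all 14182 genes tested. The 14 interferon-stimulated genes tested had a median log2 fold change of 0.69 with agonist library 1 and -0.06 without it. Stat2, the signalling subunit of that pathway, stood at 379 CPM in library 1 and at 52.3 to 98.2 CPM in the other agonist libraries. Oasl2, an antiviral gene, was above every control (0.84, SE 0.30). Polk, a DNA polymerase that bypasses bulky adducts and one of 16 p53 target genes tested, stood at 199.8, 137, 118 and 105.0 CPM with agonist and 75.4, 72.4, 81.8 and 70.5 CPM with oil. Its groups were apart (log2 fold change 0.90, SE 0.28, edgeR adjusted p = 0.903), and the list had a median of -0.11, or 0.13 without library 1. Oasl2 and Polk were chosen after their values were seen. Of 14 heat shock and 17 clock genes tested, 0 were called and 0 had groups apart (0% and 3.62% of all genes tested). Their medians were 0.17 and 0.36, or 0.011 and 0.19 without library 1, where 1 clock gene lay above all controls (3.55% of all genes).

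Most markers of muscle in the neuronal nuclei had fold changes below 0. Of 17 smooth muscle markers tested 16 had a fold change below 0, with a median of -0.80, or 13 with a median of -0.41 without library 1. By edgeR 0 were called (0% of all genes tested), while at an unadjusted p under 0.05, 4 were lower and 0 higher (1.33% and 3.69% of all genes tested). Of all 14182 genes tested, 6338 had a fold change below 0. Synpo2, an actin-binding protein of muscle, stood at 52.6, 46.9, 53.5 and 49.4 CPM with agonist and 83.5, 94.7, 102 and 175 CPM with oil, without overlap (-1.17, SE 0.31, edgeR adjusted p = 0.903). Tpm2 (-1.36, SE 0.46) and Acta2 (-1.16, SE 0.52) had overlapping groups, and the defining gene Myh11 stood at 162 to 314 against 103 to 531 CPM. Summed by library size, the 19 markers stood at 907 to 1779.8 CPM with agonist and 1189.7 to 2698 CPM with oil in the neuronal nuclei. In the non-neuronal nuclei these sums were 3110 to 11860 CPM in agonist mice and 6183 to 24922 CPM in controls. The non-neuronal sums were thus also lower, with overlap, and the part of muscle RNA carried into the neuronal gate was not tested.

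The other cell type lists differed in level. Their sums are by library size only, and levels of single genes are TMM-scaled CPM. Markers of interstitial cells of Cajal summed to 333 to 494 CPM with agonist and 509 to 599.6 CPM with oil, without overlap, at 143% of the non-neuronal level in agonist mice. Etv1, which enteric neurons also express and which stood at 409 against 501 CPM, made up most of that sum, and the defining gene Kit stood at 5.36 against 3.46 CPM. Endothelial markers summed to 38.8 to 52.4 CPM with agonist and 55.7 to 83.1 CPM with oil, and epithelial markers to 27.0 to 120.1 CPM against 70.1 to 206 CPM. Muc2, the mucin of goblet cells, stood at 5.71, 11.2, 4.30 and 10.2 against 9.93, 47.7, 83.8 and 16.6 CPM with overlap (log2 fold change -2.32, SE 0.69). Macrophage and lymphocyte markers summed to 13.8 to 23.2 against 7.30 to 27.9 CPM, and 0 of 21 passed the count filter. Mitochondrially encoded transcripts, a sign of RNA from outside the nucleus, took 1.77% to 5.28% of the counts with agonist and 1.95% to 6.11% with oil.

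Against the non-neuronal nuclei of the same treatment, Ahrr and Ahr stood higher in neuronal nuclei and Cyp1a1 lower. All values here are on the scale fitted over 16 libraries. Cyp1a1 stood at 2.52 to 8.05 CPM in the neuronal and at 8.57 to 165 CPM in the non-neuronal agonist libraries. Ahrr had a mean of 57.3 CPM in neuronal agonist libraries. Its non-neuronal mean was 7.09 ± 5.60 CPM with agonist and 13.2 ± 7.5 CPM with oil (SD over 4 libraries). The neuronal agonist libraries lay above the non-neuronal ones without overlap. The non-neuronal groups overlapped, and the difference of the response between populations was 3.70 (SE 1.15) with an edgeR adjusted p of 0.432 and a DESeq2 adjusted p of 0.0640. Tiparp stood at 74.1, 71.8, 80.0 and 92.1 CPM in the non-neuronal agonist and 11.5, 17.6, 28.1 and 16.1 CPM in the non-neuronal control libraries, apart in that population as well (difference -0.91, SE 0.65, edgeR adjusted p = 0.774). Ahr was higher in the neuronal nuclei (69.6 to 146 CPM with agonist) than in the non-neuronal ones (39.7 ± 17.7 CPM, SD over 4 libraries), without overlap between the agonist libraries.

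Specc1, St8sia1 and Kcnj12 were neuronal in level. Specc1 had a mean of 531 CPM in neuronal agonist libraries. Its non-neuronal means were 63.3 ± 22.2 CPM with agonist and 76.6 ± 23.3 CPM with oil (SD over 4 libraries), with a difference of response of 1.43 (SE 0.45, edgeR adjusted p = 0.432). St8sia1 stood at 60.6 against 18.8 CPM and Kcnj12 at 18.1 against 0.174 CPM. Abca1 and Nfe2l2 were not: Abca1 stood at 175 against 196 CPM, and Nfe2l2 at 59.6 against 221 CPM. The non-neuronal groups of both overlapped, and the difference of the Abca1 response was 0.66 (SE 0.66, edgeR adjusted p = 0.872). By edgeR 0 of 18566 genes (0%) passed for the difference between populations, 1484 had an unadjusted p under 0.05 (7.99%), and DESeq2 called 94 higher (0.458%) and 56 lower (0.273%) of 20533 (0.731% in all).

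**Figure D5:**
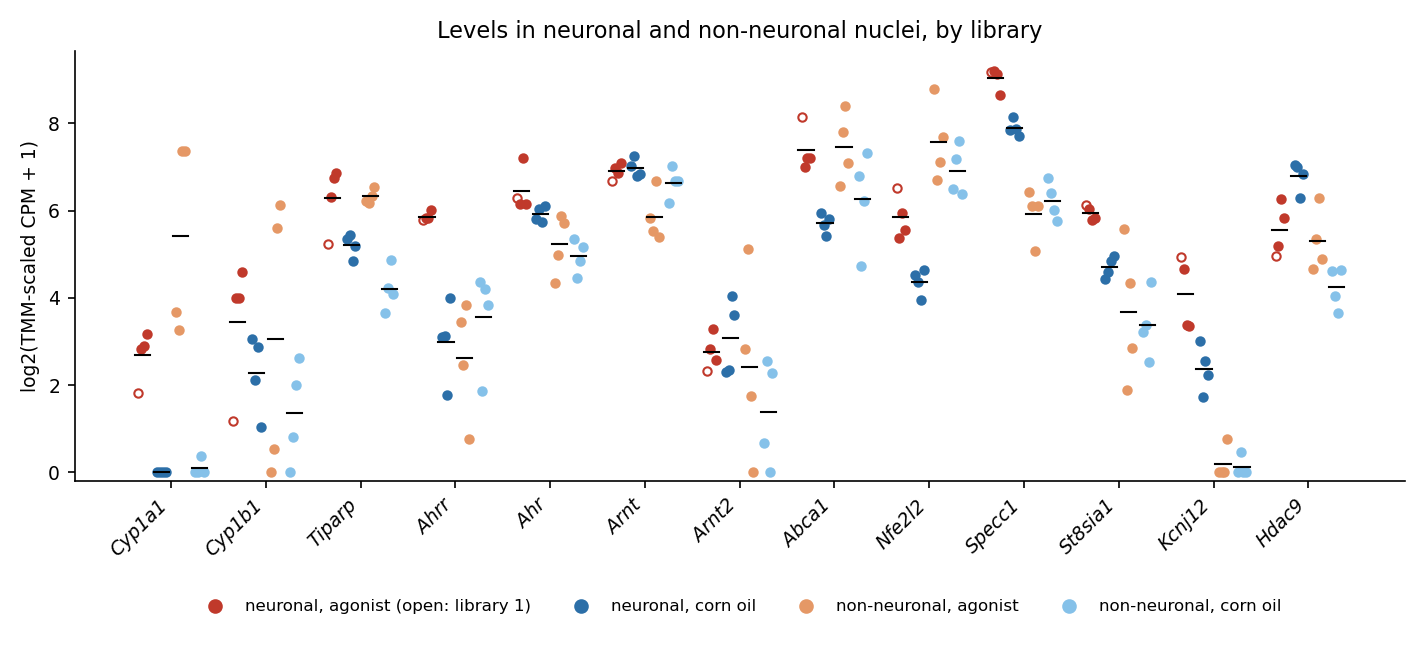
Levels, as log2 of TMM-scaled CPM plus 1 on the scale fitted over 16 libraries, of 13 genes in neuronal and non-neuronal nuclei of agonist and corn oil mice, 1 point a library and bars at the mean of the log values. Ahrr is highest in the neuronal agonist libraries, Cyp1a1 in the non-neuronal ones, and Kcnj12 is at most 0.694 CPM outside the neuronal nuclei.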

How the data were processed

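Nuclear RNA of sorted neuronal and non-neuronal nuclei was sequenced, and the deposited values are expected counts per gene and library; per the submitters' processing notes, STAR 2.5.2, RSEM 1.3.0, DESeq2 1.10.1 and the build GRCm38 were used, with no role given for each. Annotation release and strand handling in counting: not given in the sources used here. Expected counts were rounded to whole numbers. Genes were kept by filterByExpr of edgeR (minimum count 10, minimum total 15) and libraries were scaled by TMM.

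The main test was edgeR 4.0.16's quasi-likelihood test (R 4.3.3) on the 8 neuronal libraries, with no covariate and Benjamini-Hochberg adjustment over all genes tested, called at 0.05. The difference between populations was fitted over 16 libraries. Alternatives were DESeq2 1.42.0, limma 3.58.1 voom, other scalings and filters, a replicate block and leaving out each library. The code was tested on simulated data whose spread was estimated without agonist library 1, so that test does not cover the spread this library adds. Library totals set the precision at low counts, and floors cover counting error only.

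The named genes are a fixed AhR set with Kcnj12, and per direction 12 genes with a mean of at least 10 CPM in the higher group and groups apart, and 8 of the highest level, filled by the smallest p-values where none was called, leaving out models without a name. Of each list up to 3 members of the highest level could be named. The genes, lists and comparison were chosen with earlier results of these data known. Promoter windows and their sequences are RefSeq's, on GRCm38.p6. Deviations of same-numbered libraries correlated at -0.07, -0.0007, -0.10 and 0.23 for numbers 1 to 4, not all above 0.1, so the numbers were not used as pairs.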

Additional observations from a re-analysis of the deposited data

Results flagged for a closer look

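Of 66 groups of 4 libraries checked over 33 named genes, 6 held a library far from its group, which chance does in about 1 group in 20, and 2 of the 6 were agonist library 1. Abca1 stood at 335 CPM in agonist library 1 against 152 to 174 CPM in the other 3, and Nfatc1 at 480 CPM against 79.9 to 109 CPM. Ahr stood at 173 CPM in agonist library 3 against 82.8 to 92.5 CPM. Ahrr stood at 75.0 CPM in agonist library 4, where the other 3 lay between 64.9 and 66.1 CPM. Olfml2a stood at 34.1 CPM in control library 2 against 4.35 to 9.40 CPM, and Csnk2b at 24.4 CPM in the same library against 5.64 to 6.21 CPM.

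Hdac9 was lower in every agonist library of neuronal nuclei than in any control, and higher in every agonist library of non-neuronal nuclei. The difference of the log2 responses was -2.37 (SE 0.70), with an edgeR adjusted p of 0.413 and a DESeq2 adjusted p of 0.0376. Other genes named above also passed DESeq2 for this difference. Among them were Nphp4 (9.01, SE 1.90, DESeq2 adjusted p = 0.000518) and Gm3667 (12.1, SE 2.88, DESeq2 adjusted p = 0.00893). Cyp19a1 (9.55, SE 2.55, DESeq2 adjusted p = 0.0396) and Rasgrp3 (-6.59, SE 1.78, DESeq2 adjusted p = 0.0471) passed too. These others had an edgeR adjusted p of 0.229 to 0.409, and their non-neuronal groups overlapped.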

How the results depend on the processing

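By edgeR's quasi-likelihood test the neuronal comparison gave 0 higher and 0 lower genes under library size scaling, a stricter filter, without mitochondrial genes, with all 4 groups in 1 fit and in each fit that left out a library (0 to 0). With no filter on low counts it gave 142 higher and 10 lower genes, and the cause was not tested. DESeq2 gave 14 higher and 10 lower, and 9 and 15 without agonist library 1. Limma voom with library quality weights gave 4 higher. The fit with weights and the DESeq2 fit without library 1 were added after seeing the data. The difference between populations gave 94 higher and 56 lower genes with DESeq2, 72 and 38 with no filter, and over the fits that left out a library 0 to 8 higher and 0 to 1 lower, the highest without non-neuronal agonist library 3. The replicate block gave 0 higher and 0 lower genes in both comparisons, and of the agonist libraries only library 4 correlated best with the control of its own number. Of 42 named genes, 40 kept their direction in every fit. Arnt (-0.07) ranged from -0.14 to 0.030 when a library was left out, above 0 without control library 2, and was 0.018 in DESeq2 without agonist library 1. Taar4 (-0.12) ranged from -0.38 to 0.77 in the edgeR fits that left out a library and tested it. It was 0.28 without agonist library 2, 3 or 4 and 0.77 without control library 1. Agonist library 1 held all 71 of its agonist counts, and without that library edgeR did not test it. DESeq2 without agonist library 1 called it lower (-6.71, adjusted p = 0.0334). It was -4.65 in limma voom with quality weights and -3.15 in limma voom. With 4 libraries a group, 1 of them apart, and 2887416 to 4434251 counts each, genes of low level had wide errors.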
